A study of Mus musculus with 30 samples.

Results

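CD11b+ cells that had entered C26-GM tumors were set against CD11b+ cells from the spleens of mice bearing the same tumor. The comparison takes in the 3 arrays titled as C26-GM tumor and the 3 titled as C26-GM spleen, 6 of the 30 arrays of the series, and 18194 genes measured by a probe set with 1 gene symbol. The series profiles myeloid cells of tumor-bearing and healthy mice, and here the tumor model is held constant while the site changes. C26-GM is a form of the C26 colon carcinoma that releases the growth factor GM-CSF, and the labels call its hosts bearers of a GM-CSF tumor. All mice behind the arrays used here were BALB/c. The C26-GM tumor group holds cells of the tumor infiltrate and the C26-GM spleen group holds cells of the spleen. For context only, levels are also given for cells of 4T1 tumors, a mammary carcinoma, of healthy BALB/c spleens and of fresh BALB/c bone marrow, with 3 arrays each. In every group CD11b+ cells were enriched with magnetic beads, and total RNA was labelled with biotin and hybridised to a whole-genome Affymetrix mouse array. Enrichment is not purification, and the labels give neither a purity nor the age, sex or tumor stage of the hosts. Nor do they say whether the 3 arrays of a group came from separate mice, so the spread between arrays on which the p-values rest may be technical.

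CD11b, an integrin chain encoded by Itgam, is carried by monocytes, macrophages and granulocytes and by some dendritic and lymphoid cells. GM-CSF released by a tumor drives the outgrowth of immature myeloid cells in marrow and spleen, and such cells are known as myeloid-derived suppressor cells because they restrain T cells, in part by breaking down arginine. Granulocytes make their granule proteins in waves while they mature in the marrow, and the spleen has a resident macrophage of its own in the red pulp, which clears old red blood cells and depends on the factor encoded by Spic.

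All levels are log2 RMA values, given for replicates 1, 2 and 3 of each group. Differences are tumor minus spleen on the same log2 scale, with the standard error (SE) of a limma model over all 30 arrays and n = 3 arrays on each side. Adjusted p-values are from that model with Benjamini-Hochberg adjustment over 18194 genes, and a gene is called, and said to have risen or fallen, where that value is under 0.05 and the groups differ 2-fold or more. All 10 groups share the estimate of a gene's spread on which the SE rests, and 3 arrays a side limit the precision. RMA gives no detection call, so a level near the lower end of the scale is not evidence of expression.

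Correlations between arrays ran between 0.972 and 0.992 among the tumor arrays and between 0.976 and 0.991 among the spleen arrays, against 0.941 to 0.967 between the sites. The third tumor array stood apart in its actin control probe sets, whose 3' end exceeded the 5' end by 2.42, against 0.0105 to 0.681 on the other 29 arrays, and its Gapdh control gave 1.92. Of the spleen arrays the third was the highest in both controls, with 0.665 for actin and 0.469 for Gapdh. The label of the cells was checked on Itgam, which had 11.61, 11.25 and 9.15 in the tumor arrays, against 11.34, 10.73 and 10.29 in the spleen arrays. The third array was the lowest at both sites, the groups overlapped, and the difference was -0.12 ± 0.40 (adjusted p = 0.926). The leukocyte marker Ptprc had 11.80, 11.92 and 11.87 in the tumor arrays, against 12.56, 12.43 and 12.58 in the spleen arrays. In such bulk samples fewer cells of a type and less RNA per cell cannot be told apart.

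Of the 18194 genes 1120 (6.16%) were called, 508 (2.79%) higher and 612 (3.36%) lower in the tumor. In 470 of the 508 and 584 of the 612 the tumor and spleen values did not overlap, which was the case for 25.7% of all genes. Most calls were of moderate size, since 402 rises and 499 falls lay between 1 and 2 on the log2 scale, while 10 rises and 14 falls lay at 4 or more. The median difference over all genes was 0.0045. Leaving out the third arrays of both sites gave 1184 calls, 528 higher and 656 lower, and 961 of the 1120 genes were called the same way. With the arrays centred on housekeeping genes 620 genes were called higher and 492 lower, so that 55.8% of the calls were rises, against 45.4% without that step.

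**Figure D1:**
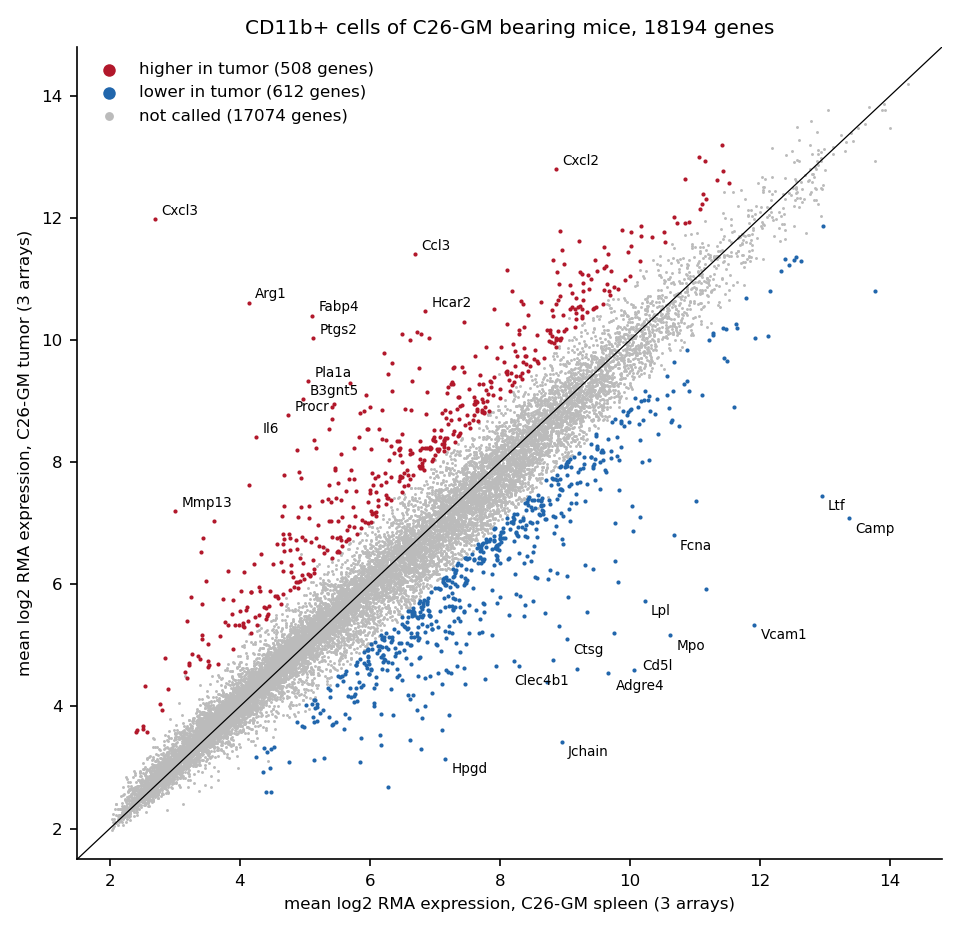
Mean log2 RMA expression of 18194 genes in C26-GM tumor cells (vertical axis, 3 arrays) and C26-GM spleen cells (horizontal axis, 3 arrays); each point is a gene, and the line marks equal levels. The 508 genes called higher in the tumor lie above the line and the 612 called lower lie below it, and the named points are the 12 largest rises and 12 largest falls among genes whose groups did not overlap, with predicted and immunoglobulin genes passed over.

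The largest rise was in Cxcl3, a CXC chemokine that draws neutrophils through the receptor Cxcr2. It had 11.96, 11.86 and 12.13 in the tumor arrays, against 2.68, 2.65 and 2.74 in the spleen arrays. The groups lay at opposite ends of the scale, since Cxcl3 stood at or above the 99.07 percentile of all genes on each tumor array and at or below the 4.1 percentile on each spleen array. The difference was 9.30 ± 0.21 (adjusted p = 1.47e-21). Its size depends on the lower end of the RMA scale, where the spleen values lie, and no fold is given from it. Its relative Cxcl2 had 12.55, 12.96 and 12.87 in the tumor arrays, against 8.96, 8.22 and 9.41 in the spleen arrays, and rose by 3.93 ± 0.37 (adjusted p = 1.47e-08). In mean levels 4T1 tumors (10.66 for Cxcl3 and 12.78 for Cxcl2) were near the C26-GM tumors, while healthy spleen (2.19 and 7.66) and marrow (2.83 and 9.67) were nearer the C26-GM spleens for both genes. The promoters of these chemokine genes are shown because they lie close together on one chromosome and, of the called chemokine ligands with a promoter window, were the only ones to hold the kappaB motif searched. Each window runs 250 bases upstream and 50 bases downstream of the annotated start (RefSeq, GRCm38.p6, 5' to 3' on the gene's strand). Capitals mark matches to GGG, any 2 bases and TTTCC, a form bound by NF-kappaB dimers, on either strand. The Cxcl3 window is chr5:90785851-90786150 on the plus strand, with a match that starts at base -73 from the start. The Cxcl2 window is chr5:90903649-90903948 on the plus strand, with matches at -97 and -78.
Cxcl3: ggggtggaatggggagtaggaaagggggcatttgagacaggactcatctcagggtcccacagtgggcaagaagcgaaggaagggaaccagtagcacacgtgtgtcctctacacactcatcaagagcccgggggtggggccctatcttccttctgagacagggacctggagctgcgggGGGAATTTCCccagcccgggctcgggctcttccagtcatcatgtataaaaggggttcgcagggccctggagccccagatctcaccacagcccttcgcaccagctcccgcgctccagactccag
Cxcl2: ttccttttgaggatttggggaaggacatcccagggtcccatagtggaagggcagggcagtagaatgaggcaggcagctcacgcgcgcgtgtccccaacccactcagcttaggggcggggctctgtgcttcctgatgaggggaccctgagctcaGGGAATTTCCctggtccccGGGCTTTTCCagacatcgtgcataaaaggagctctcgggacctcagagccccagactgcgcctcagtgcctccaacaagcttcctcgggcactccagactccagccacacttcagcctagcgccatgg
Of the 13 called ligands 8 had a window in the table, and 2 of those 8 windows (25%) held the motif, against 1.63% of all 32851 windows and 3.67% of the 518 windows of all genes called higher. A match is a description of letters, not of a bound site. Uncalled ligands were not counted, so the share does not bear on the difference between the sites.

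Of 23 measured CXC and CC chemokine ligands 13 rose and 0 fell, against 2.79% of all genes higher and 3.36% lower, and the median difference was 1.17, against 0.0045 over all genes. These shares and this median over all genes also apply to each list count below. Ccl3, a CC chemokine and ligand of Ccr1, had 11.01, 11.94 and 11.27 in the tumor arrays, against 6.59, 6.26 and 7.23 in the spleen arrays, and rose by 4.71 ± 0.29 (adjusted p = 3.81e-12). Ccl4, a related CC chemokine, had 8.95, 9.42 and 9.97 in the tumor arrays, against 5.95, 6.16 and 6.72 in the spleen arrays, and rose by 3.17 ± 0.21. In neither gene did the groups overlap. The ligands of the monocyte receptor Ccr2 also rose, with Ccl12 at 2.47 ± 0.36, Ccl2 at 2.26 ± 0.33 and Ccl7 at 1.25 ± 0.28. Ccl12 varied widely within the tumor group, with 6.47 and 6.49 on the first 2 arrays and 8.40 on the third. Cxcl10, an interferon-induced ligand of Cxcr3, had 6.14, 8.69 and 8.80 in the tumor arrays, against 5.57, 5.68 and 5.16 in the spleen arrays, so that the first tumor array was the closest to the spleen. Ccl8 (1.65), Pf4 (1.51), Cxcl16 (1.21), Cxcl5 (1.17) and Cxcl14 (1.05) made up the other rises. Pf4, a chemokine stored by platelets and also made by macrophages, overlapped between the groups, and its call was lost in a fit on the 6 arrays alone (adjusted p = 0.0797). Not called were Cxcl1 (0.64, adjusted p = 0.015), Cxcl9 (0.05), Ccl5 (-0.16) and Ppbp (-1.31), among others.

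Among 17 measured chemokine and chemoattractant receptors 4 rose and 3 fell, with a median of 0.14. The scavenging receptor Ackr3 rose by 2.55 ± 0.35 and the chemerin-binding Ccrl2 by 2.24 ± 0.26, and Ccr1 rose by 1.06. Cxcr2, the receptor for Cxcl2 and Cxcl3, had 11.18, 11.37 and 9.85 in the tumor arrays, against 10.24, 9.23 and 8.36 in the spleen arrays. Its values overlapped, because the third tumor array lay below the first spleen array, and the difference was 1.52 ± 0.36 (adjusted p = 0.00402, and 0.116 in the fit on the 6 arrays alone, where the call was lost). The monocyte receptors Ccr2 (-1.29 ± 0.28) and Cx3cr1 (-1.21) and the eotaxin receptor Ccr3 (-1.94 ± 0.33) fell. Cxcr4, the receptor that holds granulocytes in the marrow, had 0.31 ± 0.36 and was not called.

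**Figure D2:**
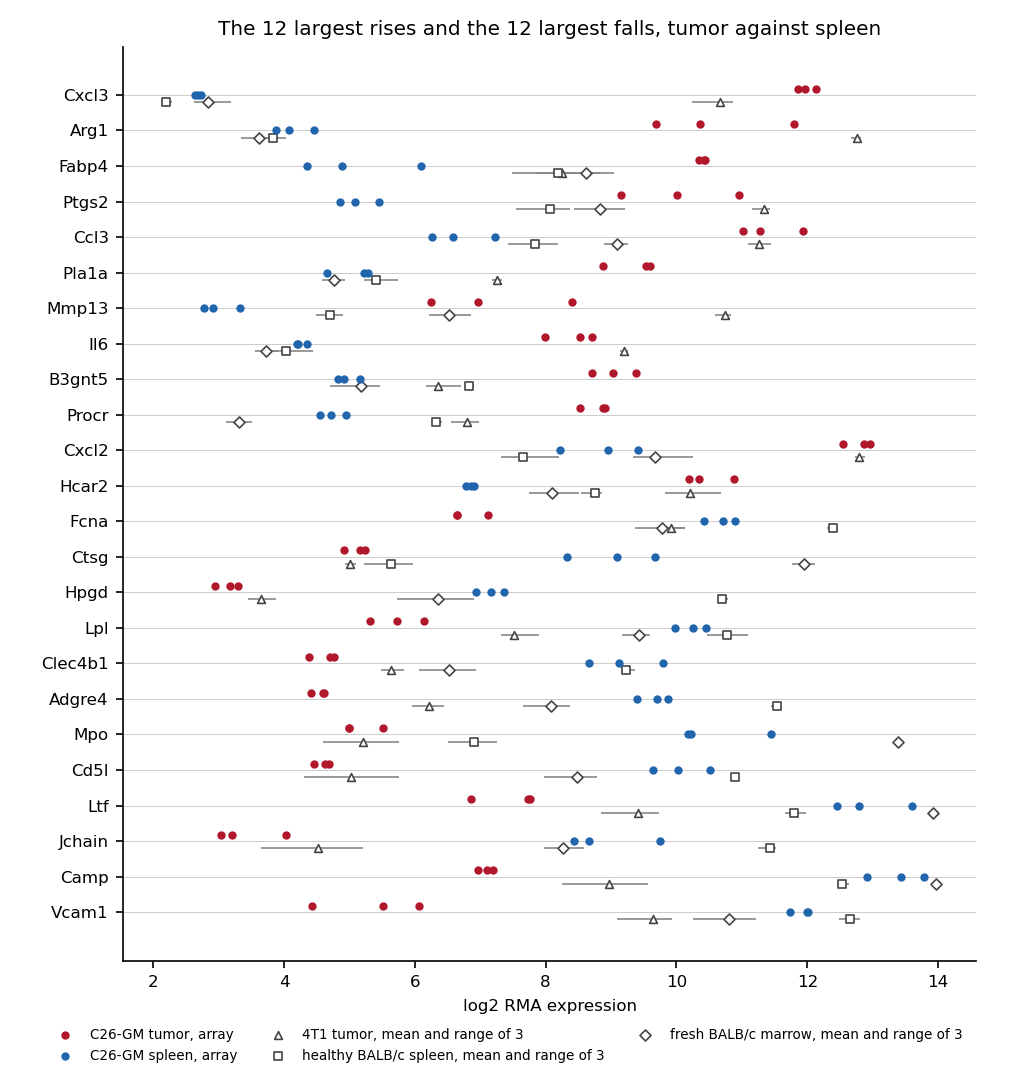
Log2 RMA expression of the 24 genes named in the plot of mean levels, 12 that rose and 12 that fell; red points are the 3 C26-GM tumor arrays, blue points the 3 C26-GM spleen arrays, and open symbols give the mean and range of 3 arrays for 4T1 tumor, healthy BALB/c spleen and fresh BALB/c marrow. For Cxcl3 and Arg1 the 4T1 tumor lay on the side of the C26-GM tumor, whereas for Mpo and Ctsg the marrow lay above the C26-GM spleen (13.38 and 11.94 in marrow).

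Of the arginine and immunosuppression genes the arginase Arg1 changed most. It had 11.80, 10.35 and 9.69 in the tumor arrays, against 4.07, 4.46 and 3.88 in the spleen arrays, a difference of 6.48 ± 0.35 (adjusted p = 3.67e-13). The tumor arrays spread over more than 2 log2 units but stayed far above every spleen array, and the C26-GM spleens (mean 4.14) lay close to healthy spleen (3.83). Of the 17 measured members of the list 6 rose and 0 fell, with a median of 0.36. Arg2, the mitochondrial arginase, had 11.26, 11.28 and 11.10 in the tumor arrays, against 9.82, 9.97 and 9.11 in the spleen arrays, and rose by 1.58 ± 0.29 (adjusted p = 0.000253). The arginine transporter Slc7a2 had 8.61, 7.85 and 6.78 in the tumor arrays, against 5.67, 6.25 and 6.30 in the spleen arrays. Its rise of 1.67 ± 0.42 (adjusted p = 0.00574) rested on the first tumor array, without which it was 1.24 (adjusted p = 0.0563). Nt5e, which turns AMP into adenosine, rose by 3.12 ± 0.34, and Entpd1, which supplies that AMP, by 1.2 ± 0.2. Only 1 of the 3 probe sets of each was called, and the mean over probe sets gave 1.26 for Nt5e and 0.893 for Entpd1. The checkpoint ligand Cd274 rose by 1.01 ± 0.23 (adjusted p = 0.00303), at the edge of the 2-fold limit, and was not called without the third tumor array (0.826), the first spleen array (0.902) or the second (0.901), or after quantile normalization over the 6 arrays (adjusted p = 0.0585). Nos2, the inducible nitric oxide synthase, had 5.76, 5.32 and 5.11 in the tumor arrays, against 5.01, 4.71 and 5.15 in the spleen arrays, and was not called (0.44 ± 0.29, adjusted p = 0.419). Neither were the suppressive cytokine gene Il10 (-0.30 ± 0.23) and the haem-degrading enzyme gene Hmox1 (-0.56 ± 0.31).

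Cytokine genes moved with the chemokines. Il6 had 8.71, 7.99 and 8.52 in the tumor arrays, against 4.20, 4.34 and 4.22 in the spleen arrays, and rose by 4.15 ± 0.35 (adjusted p = 1.97e-09). Il1b, a product of activated phagocytes, had 12.73, 13.26 and 13.03 in the tumor arrays, against 10.84, 11.11 and 11.26 in the spleen arrays, and rose by 1.94 ± 0.26 (adjusted p = 4.37e-06). The groups did not overlap in either gene. Healthy spleen differed between them, since its mean for Il6 (4.03) lay near the C26-GM spleen and its mean for Il1b (12.92) near the C26-GM tumor. Of 21 measured inflammatory cytokines and growth factors 6 rose and 1 fell, with a median of 0.62. The others that rose were the EGF receptor ligand Hbegf (2.20 ± 0.28), the macrophage growth factor Csf1 (1.69 ± 0.21), Osm (1.64) and the interleukin-1 receptor antagonist Il1rn (1.58), and the growth factor Pdgfb fell by 1.68. Tnf had 0.41 (adjusted p = 0.316). Csf2, which encodes GM-CSF itself, had 5.17, 5.59 and 4.40 in the tumor arrays, against 4.37, 4.60 and 4.75 in the spleen arrays, and was not called (0.48 ± 0.22, adjusted p = 0.157). Vegfa, an angiogenic factor, had 7.77, 6.95 and 5.69 in the tumor arrays, against 6.34, 5.65 and 5.88 in the spleen arrays. It was not called with all arrays (0.85 ± 0.38, adjusted p = 0.162) and was called without the third tumor array (1.40, adjusted p = 0.00868), the one with the high actin 3' signal, and with the mean of its probe sets (1.04, adjusted p = 0.0238).

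Feedback and target genes of NF-kappaB gave 5 rises and 0 falls among 18, with a median of 0.51. They were the lipopolysaccharide co-receptor Cd14 and the survival gene Ier3 (both 1.78), Nfkbiz (1.71), the RNase gene Zc3h12a (1.58) and the superoxide dismutase Sod2 (1.33, or 0.865 as the mean of 4 probe sets). Toll-like and C-type lectin receptors gave 7 rises and 1 fall among 19, with a median of 0.14. Tlr2 had 10.14, 10.27 and 9.81 in the tumor arrays, against 8.71, 8.68 and 8.32 in the spleen arrays, and Tlr6 (1.37), Tlr4 (1.19) and the inflammasome sensor Nlrp3 (1.15) rose with it. The fall was in the lectin Cd209a (-3.26 ± 0.30), which monocyte-derived dendritic cells carry. Of 24 immediate early genes 5 rose and 2 fell, with a median of 0.40. Maff rose by 2.81 ± 0.22 and Egr1 by 1.79 ± 0.41, while Nr4a1 fell by 1.74 ± 0.26 and Egr2 by 1.25 ± 0.26. The count of rises was 2 without the second tumor array and 2 without the second spleen array, and 3 in the fit on the 6 arrays alone. Fos (0.24), Dusp1 (0.69) and Atf3 (-0.71) were not called. Of the 6 promoter windows of the called rises 0 held TGANTCA, the AP-1 motif, on either strand, against 7.81% of all windows. At that share 6 windows would often hold none, so the count does not set the list apart from all genes.

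**Figure D3:**
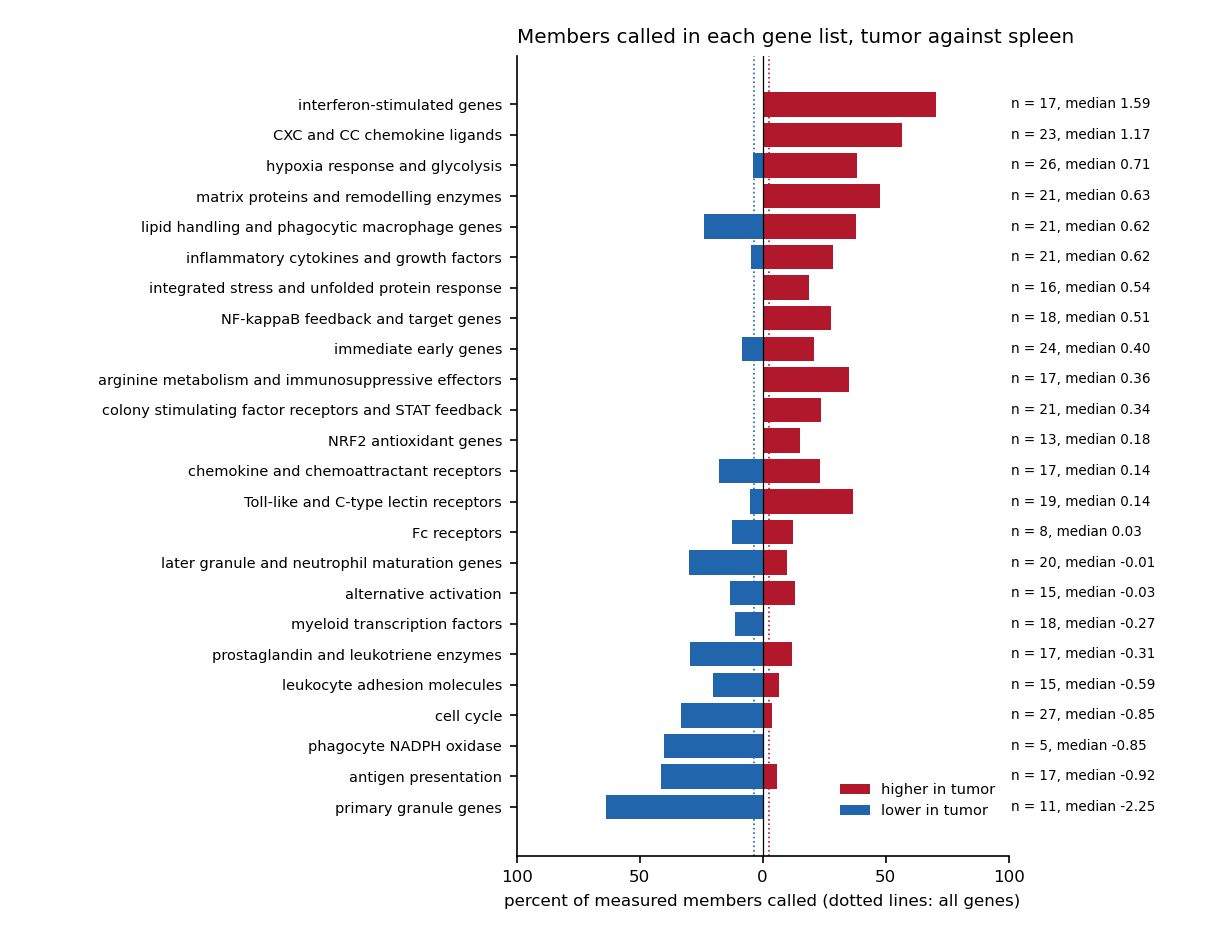
Share of the measured members of 24 gene lists called higher (right, red) or lower (left, blue) in C26-GM tumor cells than in C26-GM spleen cells, in percent, with the number measured and the median log2 difference at the right; dotted lines give the same shares over all 18194 genes (2.79% higher, 3.36% lower). Interferon-stimulated genes and chemokine ligands have the highest medians (1.59 and 1.17) and primary granule genes the lowest (-2.25).

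Ptgs2, the inducible cyclooxygenase that starts prostaglandin synthesis, had 9.15, 10.96 and 10.01 in the tumor arrays, against 5.45, 4.85 and 5.09 in the spleen arrays. Its rise of 4.91 ± 0.50 (adjusted p = 5.25e-08) was set against healthy spleen at a mean of 8.07 and marrow at 8.83, both above every C26-GM spleen array. Hpgd, the dehydrogenase that inactivates prostaglandins, had 3.30, 2.95 and 3.17 in the tumor arrays, against 6.94, 7.37 and 7.17 in the spleen arrays, and fell by 4.02 ± 0.32 (adjusted p = 8.27e-10). That value came from 1 of 2 probe sets. With the probe sets that may cross-hybridise left out the other gave -0.517 (adjusted p = 0.283). Among 17 measured prostaglandin and leukotriene enzymes and receptors 2 rose and 5 fell, with a median of -0.31. The leukotriene C4 synthase Ltc4s rose by 1.07, the thromboxane synthase Tbxas1 fell by 1.85 ± 0.19, the leukotriene A4 hydrolase Lta4h by 1.71 ± 0.25 and the prostaglandin D synthase Hpgds by 1.06. For Lta4h 1 of 3 probe sets was called, and their mean was -0.928. Alox12, a platelet lipoxygenase, fell by 1.23 ± 0.35, but without the third spleen array, where it had 6.75, the difference was -0.551 (adjusted p = 0.169), and without the third tumor array -1.08 (adjusted p = 0.0758). Neither the fit on the 6 arrays alone (adjusted p = 0.191) nor the mean of its probe sets (-0.753) kept the call. The count of falls was 3 with the mean of all probe sets.

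Genes of the response to low oxygen and of glycolysis rose in 10 of 26 measured cases and fell in 1, with a median of 0.71. Egln3, an oxygen-sensing prolyl hydroxylase that is itself induced by hypoxia, had 9.54, 9.35 and 9.10 in the tumor arrays, against 7.28, 7.10 and 5.55 in the spleen arrays, and rose by 2.68 ± 0.35 (adjusted p = 2.61e-06). The glucose transporter Slc2a1 had 11.21, 11.22 and 11.50 in the tumor arrays, against 9.0, 8.79 and 8.65 in the spleen arrays, and rose by 2.50 ± 0.30 (adjusted p = 1.07e-06). The mitophagy receptor Bnip3 had 11.43, 11.00 and 10.80 in the tumor arrays, against 9.42, 9.61 and 8.75 in the spleen arrays, and rose by 1.82 ± 0.26 (adjusted p = 1.3e-05). None of these overlapped between the groups. The glycolytic activator Pfkfb3 (2.27 ± 0.38), the lactate exporter Slc16a3 (1.53), Ankrd37 (1.52), the collagen-modifying enzyme P4ha1 (1.34), Ndrg1 (1.17) and the phosphofructokinase Pfkl (1.01) rose as well. For Pfkfb3 1 of 2 probe sets was called, and the other gave 0.973. The cytokine Mif rose by 1.79 ± 0.15, but through 1 of its 3 probe sets, whose mean was 0.544. Slc2a3, the glucose transporter typical of leukocytes, fell by 1.37. Most enzymes of the glycolytic chain stayed below 2-fold, among them Tpi1 (0.89), Hk2 (0.67), Aldoa (0.54), Ldha (0.45), Pgk1 (0.03) and Hk1 (-0.14), and Hif1a had 0.58 ± 0.16. The list averaged 9.96, 9.71 and 9.64 over the 3 tumor arrays, against 8.95, 8.98 and 8.79 over the 3 spleen arrays and 8.40 to 8.44 in healthy spleen. The 4T1 tumor arrays averaged 10.03 to 10.38.

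The promoters of Bnip3 and Slc2a1 are shown as examples of called hypoxia genes with the core of the hypoxia response element. Capitals mark ACGTG on either strand. In Bnip3 the matches on the opposite strands overlap in a palindrome. The windows are chr7:138909457-138909756 on the minus strand for Bnip3, with matches at -108 and -107, and chr4:119108495-119108794 on the plus strand for Slc2a1, with a match at -36.
Bnip3: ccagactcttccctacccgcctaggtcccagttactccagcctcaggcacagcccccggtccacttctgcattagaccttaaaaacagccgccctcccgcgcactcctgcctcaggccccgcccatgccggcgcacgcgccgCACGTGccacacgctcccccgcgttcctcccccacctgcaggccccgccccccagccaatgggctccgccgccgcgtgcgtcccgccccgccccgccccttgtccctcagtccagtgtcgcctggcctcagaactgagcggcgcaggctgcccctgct
Slc2a1: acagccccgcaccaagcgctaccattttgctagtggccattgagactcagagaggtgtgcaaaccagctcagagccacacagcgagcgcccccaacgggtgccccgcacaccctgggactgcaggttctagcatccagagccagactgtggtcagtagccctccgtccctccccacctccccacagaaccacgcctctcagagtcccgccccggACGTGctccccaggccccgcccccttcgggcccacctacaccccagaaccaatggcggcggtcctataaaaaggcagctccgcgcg
Of the 10 called genes 9 had windows, 10 in all, and 9 of these windows (90.0%) held the letters, against 19.6% of all 32851 windows and 26.4% of the 518 windows of genes called higher. The genes were Ankrd37, Bnip3, Egln3, Mif, P4ha1, Pfkfb3, Slc16a3 and Slc2a1. The list was chosen for the response to low oxygen, and only its called members were counted. The share therefore does not bear on the difference between the sites.

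Stress response genes joined these. Of 16 genes of the integrated stress and unfolded protein response 3 rose and 0 fell, with a median of 0.54. Ddit3, a factor of stress-induced cell death, rose by 1.93 ± 0.18, the phosphatase subunit Ppp1r15a by 1.99 ± 0.30 and the amino acid transporter chain Slc3a2 by 1.17 ± 0.19. The count was 5 without the third tumor array and 5 without the first spleen array, and 6 with housekeeping centring. Atf4 (0.95) and Sesn2 (0.97) lay just below 2-fold, and the chaperone Hspa5 had 0.25. Slc7a11, the cystine importer that partners Slc3a2, had 9.07, 9.13 and 8.66 in the tumor arrays, against 5.46, 5.49 and 5.41 in the spleen arrays, and rose by 3.50 ± 0.27 (adjusted p = 4.01e-10). It is listed with the NRF2 antioxidant genes, of which 2 of 13 rose and 0 fell (median 0.18). The other was the metallothionein Mt2 (2.60 ± 0.32), while Gclm (0.02), Gclc (0.09), Nqo1 (-0.52) and Srxn1 (0.32) were not called.

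Matrix proteins and enzymes that remodel the matrix rose in 10 of 21 measured cases, with 0 falls and a median of 0.63. Mmp13, a collagenase, had 6.25, 6.97 and 8.40 in the tumor arrays, against 2.92, 3.33 and 2.77 in the spleen arrays, and rose by 4.20 ± 0.47 (adjusted p = 2.41e-07). The membrane-bound protease Mmp14 had 7.93, 7.72 and 7.88 in the tumor arrays, against 4.71, 4.86 and 5.16 in the spleen arrays, and rose by 2.93 ± 0.19 (adjusted p = 1.3e-11). Thrombospondin, encoded by Thbs1, rose by 2.51 ± 0.39, the proteoglycan Sdc4 by 2.21 ± 0.28, the protease Adam8 by 1.93 ± 0.18, the urokinase receptor Plaur by 1.43 and the inhibitor Timp1 by 1.41. The gelatinase Mmp9 (0.33), the macrophage elastase Mmp12 (-0.07), Vcan (0.16) and Fn1 (-0.37) were not called. Fibroblast markers were looked at beside this list. Of 10 measured, Dcn (2.21 ± 0.33) and Acta2 (1.85 ± 0.24) rose and Postn fell (-3.60 ± 0.26), with a median of 0.26, and 4 rose without the third spleen array. The mean of these markers was 6.15, 5.80 and 6.2 on the tumor arrays, against 5.48, 5.57 and 6.16 on the spleen arrays, and the defining collagen Col1a1 had 0.07. For Acta2 only 1 of 3 probe sets was called, and their mean was 0.829. For Dcn the mean was 1.24. The part of these markers in the matrix result was not tested.

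Lipid handling and phagocytosis genes split. Of 21 measured 8 rose and 5 fell, with a median of 0.62. Fabp4, a fatty acid chaperone of macrophages and adipocytes, had 10.35, 10.42 and 10.44 in the tumor arrays, against 4.36, 6.10 and 4.89 in the spleen arrays, and rose by 5.29 ± 0.41 (adjusted p = 4.19e-10). In Fabp4 the C26-GM spleens stood out, since healthy spleen averaged 8.19, marrow 8.61 and 4T1 tumor 8.25, and only 2 of its 4 probe sets were called, with a mean over probe sets of 2.78. Atp6v0d2, a proton pump subunit of macrophages and osteoclasts, had 9.15, 7.74 and 5.96 in the tumor arrays, against 3.65, 4.08 and 4.70 in the spleen arrays, and rose by 3.47 ± 0.49. The endocytic adaptor Dab2 (1.92 ± 0.26), the cholesterol exporter Abca1 (1.80 ± 0.25), Fabp5 (1.75), the scavenger receptor Msr1 (1.73), Cd9 (1.48) and Gpnmb (1.33) also rose. In the other direction Lpl, the lipoprotein lipase, had 5.31, 5.73 and 6.15 in the tumor arrays, against 9.98, 10.46 and 10.25 in the spleen arrays, and fell by 4.50 ± 0.22 (adjusted p = 9.27e-14). The receptor kinase Axl (-1.53), the lysosomal lipase Lipa (-1.5), the sterol-sensing receptor Nr1h3 (-1.46) and the scavenger receptor Cd36 (-1.11) fell as well. With the mean of all probe sets the count of falls was 3.

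Further leading rises belonged to no list. Pla1a, a phosphatidylserine phospholipase, had 8.88, 9.53 and 9.59 in the tumor arrays, against 4.65, 5.28 and 5.22 in the spleen arrays, and rose by 4.28 ± 0.19 (adjusted p = 9.99e-15). The glycosyltransferase B3gnt5 rose by 4.07 ± 0.26, Procr, the endothelial protein C receptor, by 4.03 ± 0.37, and Hcar2, a receptor for niacin and ketone bodies, by 3.62 ± 0.21. In none of these did the groups overlap. Of 15 measured alternative activation genes, Arg1 included, 2 rose and 2 fell, with a median of -0.03. Without Arg1 there were 14 with 1 rise, in Cdh1, and 2 falls, and Chil3 (-0.03), Mrc1 (-0.09) and Retnla (0.21) were not called.

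Interferon-stimulated genes rose in 12 of 17 measured cases, with 0 falls and a median of 1.59. Ifit1, which binds foreign RNA caps, had 8.28, 9.49 and 10.13 in the tumor arrays, against 5.09, 6.08 and 5.90 in the spleen arrays, and rose by 3.61 ± 0.34 (adjusted p = 1.2e-08). Ifit3 had 7.83, 9.48 and 9.12 in the tumor arrays, against 5.94, 5.59 and 6.00 in the spleen arrays, and rose by 2.96 ± 0.30 (adjusted p = 4.79e-08). The groups did not overlap, and the first tumor array was the lowest of the 3 in both. Usp18, which dampens interferon receptor signalling, rose by 2.67 ± 0.29, Oasl2 by 2.60 ± 0.30, Ifit2 by 2.41 ± 0.40, Mx1 by 2.22, Rsad2 by 1.97 and the regulator Irf7 by 1.83. Among the subunits of the interferon-activated complex Stat2 had -0.05 and Irf9 had 0.03. The spleen side of this difference was low against healthy spleen. The list averaged 7.98, 9.21 and 9.02 over the 3 tumor arrays and 6.89, 7.11 and 7.45 over the 3 C26-GM spleen arrays, while healthy spleen arrays averaged 8.38 to 8.72, 4T1 tumor arrays 8.39 to 8.54 and marrow arrays 7.21 to 7.43. Ifit3, for example, averaged 8.86 in healthy spleen.

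The promoters of Ifit1 and Ifit3 are shown because these were the members with the largest rises. Capitals mark GAAA, any 2 bases and GAAA, the core of the interferon-stimulated response element, on either strand. The windows are chr19:34640639-34640938 on the plus strand for Ifit1, with matches at -104 and -85, and chr19:34583279-34583578 on the plus strand for Ifit3, with matches at -156 and -122.
Ifit1: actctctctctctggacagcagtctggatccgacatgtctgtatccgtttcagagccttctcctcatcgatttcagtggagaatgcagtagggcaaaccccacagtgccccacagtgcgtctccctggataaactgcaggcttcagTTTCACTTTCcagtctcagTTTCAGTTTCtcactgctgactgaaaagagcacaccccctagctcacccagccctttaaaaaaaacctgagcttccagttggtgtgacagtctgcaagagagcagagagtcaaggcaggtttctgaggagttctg
Ifit3: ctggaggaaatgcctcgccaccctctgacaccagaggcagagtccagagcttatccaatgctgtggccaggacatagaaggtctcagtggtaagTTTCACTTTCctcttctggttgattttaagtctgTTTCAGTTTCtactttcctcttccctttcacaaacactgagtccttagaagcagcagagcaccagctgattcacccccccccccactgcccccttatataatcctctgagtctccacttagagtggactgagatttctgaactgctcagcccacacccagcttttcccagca
Of the 12 called genes 9 had windows, 10 in all, and 4 of these (40%) held the letters, those of Bst2, Ifit1, Ifit3 and Rsad2, against 3.44% of all windows and 5.6% of the windows of genes called higher. No match in the others says only that these letters are not in the window. Here too only called members of a chosen list were counted, so the share does not bear on the difference between the sites.

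Some genes downstream of the receptors for colony stimulating factors passed the 2-fold limit, whereas the receptor chains named here did not. The GM-CSF receptor chains Csf2ra (-0.18 ± 0.23) and Csf2rb (0.30 ± 0.12), the M-CSF receptor Csf1r (-0.65 ± 0.12) and the G-CSF receptor Csf3r (0.80 ± 0.24) were not called. For Csf1r (adjusted p = 0.000277) and Csf3r (adjusted p = 0.0238) only the fold limit was missed in the limma model, and their differences had opposite signs. Of the 21 measured members of the list 5 rose and 0 fell, with a median of 0.34, and these were the STAT-induced inhibitors Socs1 (2.05 ± 0.34), Cish (1.43 ± 0.18), Socs2 (1.41 ± 0.32) and Socs3 (1.19 ± 0.33) and the survival gene Bcl2l1. Cish, an inhibitor induced through STAT5, had 10.21, 10.67 and 10.74 in the tumor arrays, against 8.93, 9.24 and 9.17 in the spleen arrays, while healthy spleen (6.08) and marrow (5.99) lay below both C26-GM sites. Bcl2l1, a guard against cell death, had 9.59, 9.89 and 9.73 in the tumor arrays, against 7.61, 7.61 and 7.64 in the spleen arrays, and rose by 2.12 ± 0.13 (adjusted p = 7.16e-12), or 1.34 as the mean of 4 probe sets. The call of Socs3 was lost without the second tumor array (adjusted p = 0.0683), without the third (adjusted p = 0.0644) or without the second spleen array (adjusted p = 0.0653). Csf3r and Il4ra, the interleukin-4 receptor chain (0.48 ± 0.31), were called without the third tumor array (1.07 and 1.11). Csf3r was called without the first spleen array as well (1.06). The promoter of Cish is shown for its pair of STAT motifs. Capitals mark TTCNNNGAA, a palindromic pattern found alike on both strands, in the window chr9:107296409-107296708 on the plus strand, with matches that begin 0 and 11 bases after the start.
Cish: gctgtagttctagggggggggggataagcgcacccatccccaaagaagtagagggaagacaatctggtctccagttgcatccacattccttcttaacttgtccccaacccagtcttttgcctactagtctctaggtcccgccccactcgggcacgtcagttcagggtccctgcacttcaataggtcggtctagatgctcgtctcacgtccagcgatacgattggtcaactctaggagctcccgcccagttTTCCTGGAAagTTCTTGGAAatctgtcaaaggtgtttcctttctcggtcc
Of the 5 called genes 4 had windows, 6 in all, and 2 windows (33.3%), those of Cish and Socs3, held the motif, against 8.30% of all windows and 9.07% of the windows of genes called higher. Counted over 6 windows of called members only, this share does not set the list apart from all genes.

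Transcription factors of the myeloid lineage gave 0 rises and 2 falls among 18, against 2.79% of all genes higher and 3.36% lower, with a median of -0.27. Cebpb, which drives emergency granulopoiesis, had 13.05, 13.14 and 13.24 in the tumor arrays, against 12.33, 12.16 and 12.05 in the spleen arrays. The groups did not overlap, but the difference of 0.96 ± 0.17 (adjusted p = 0.000225) stayed below 2-fold, and it passed without the first tumor array (1.01) or the first spleen array (1.04), with housekeeping centring (1.09) and with the mean of its probe sets (1.01). Irf8, a determinant of monocytes, had -0.42 ± 0.26, Cebpa -0.47 ± 0.21, Cebpd 0.55 ± 0.23 and Spi1 0.17, and none was called. Irf4, active in lymphoid and some dendritic cells, fell by 3.09 ± 0.25, or 2.02 as the mean of 2 probe sets. Myb, a factor of cycling progenitors, had 4.19, 3.60 and 5.29 in the tumor arrays, against 7.85, 7.25 and 6.2 in the spleen arrays, and fell by 2.74 ± 0.40 (adjusted p = 1.28e-05).

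**Figure D4:**
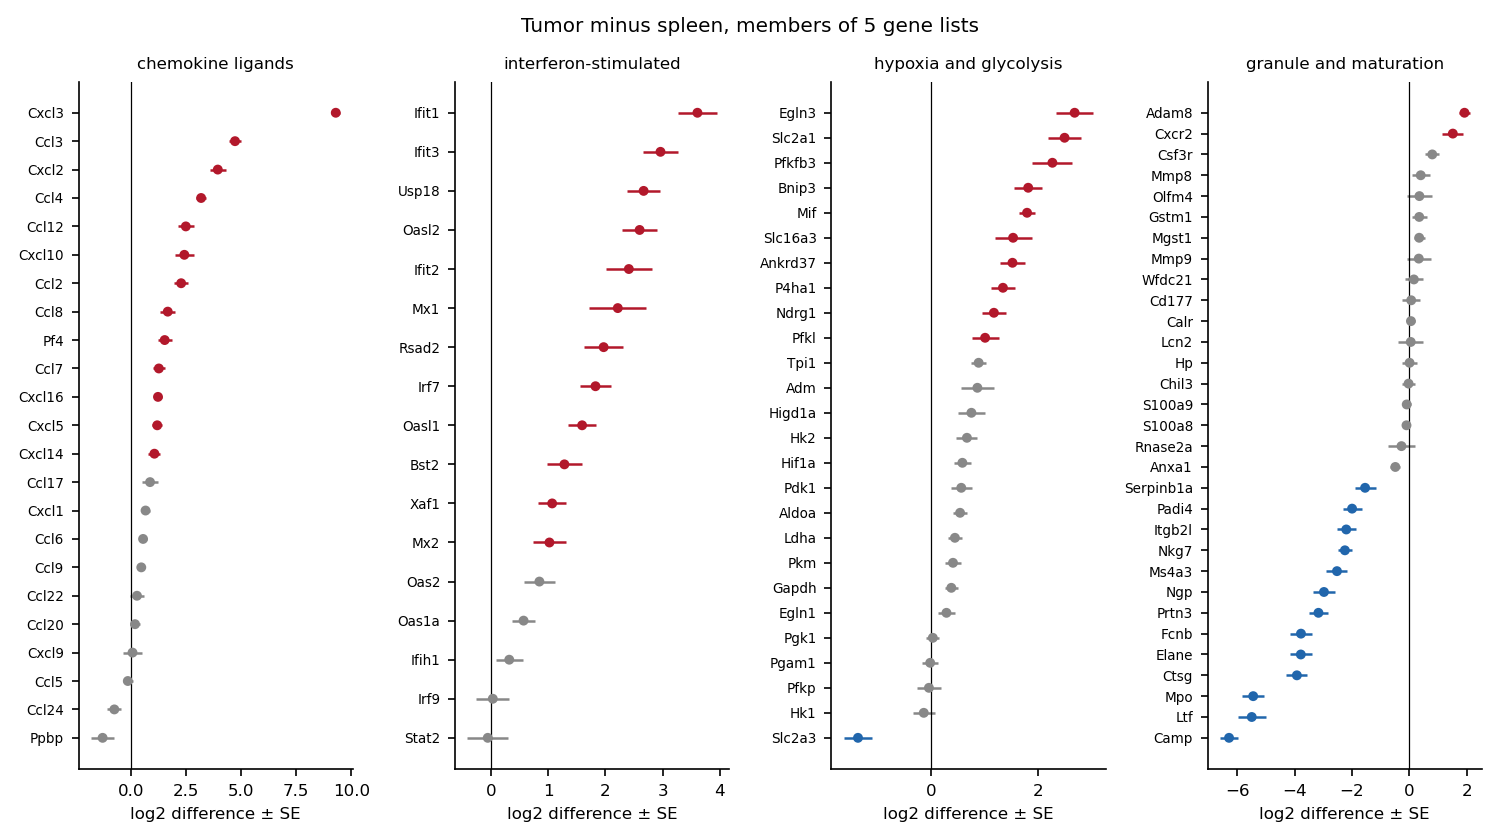
Tumor minus spleen log2 difference with its SE for each measured member of the chemokine ligand, interferon-stimulated and hypoxia lists and of the 2 granule lists together (n = 3 arrays a side); red points were called higher, blue points lower and grey points were not called. Each panel has its own scale. Cxcl3 stands apart at 9.30, and Camp, Ltf and Mpo have the lowest values at -6.29, -5.50 and -5.45.

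The granule genes gave some of the largest falls. Mpo, the myeloperoxidase of primary granules, had 5.00, 5.52 and 4.99 in the tumor arrays, against 11.44, 10.18 and 10.22 in the spleen arrays, and fell by 5.45 ± 0.39 (adjusted p = 8.69e-11). Of 11 measured primary granule genes 0 rose and 7 fell, with a median of -2.25. The serine proteases Ctsg (-3.92 ± 0.37), Elane (-3.79 ± 0.39) and Prtn3 (-3.17 ± 0.33) fell, as did Ms4a3 (-2.52 ± 0.37), a marker of granulocyte-monocyte progenitors, Nkg7 (-2.25) and Serpinb1a (-1.54). The list averaged 7.80, 7.73 and 7.36 over the 3 tumor arrays, against 10.22, 9.62 and 9.08 over the 3 spleen arrays. Healthy spleen arrays, at 7.45 to 7.83, were near the tumor arrays, and marrow arrays, at 11.04 to 11.14, were above all. Camp, the cathelicidin of secondary granules, had 7.11, 7.19 and 6.96 in the tumor arrays, against 13.78, 13.43 and 12.91 in the spleen arrays, and fell by 6.29 ± 0.31 (adjusted p = 9.27e-14). Lactoferrin, encoded by Ltf, had 7.73, 7.76 and 6.87 in the tumor arrays, against 13.60, 12.79 and 12.45 in the spleen arrays, and fell by 5.50 ± 0.49 (adjusted p = 5.55e-09). No tumor value of these genes came near a spleen value. Of the 12 promoter windows of the granule genes that fell, primary and later together, 0 held TTNCGNAA, the C/EBP motif, on either strand, against 2.47% of all windows. At that share 12 windows would often hold none, so this count does not set the granule genes apart from all genes.

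The list of later granule and neutrophil maturation genes, which includes Camp and Ltf, was split. Of 20 measured 2 rose and 6 fell, with a median of -0.01. Besides Camp and Ltf, the ficolin Fcnb (-3.78 ± 0.37), Ngp (-2.98 ± 0.38), the integrin Itgb2l (-2.20 ± 0.33) and the histone-modifying Padi4 (-2.00) fell. For Itgb2l 1 of 3 probe sets was called, and their mean was -0.696. The calgranulin gene S100a8 had 13.75, 13.70 and 13.87 in the tumor arrays, against 13.98, 13.998 and 13.64 in the spleen arrays, and S100a9 had 14.18, 14.22 and 14.18 in the tumor arrays, against 14.43, 14.42 and 13.995 in the spleen arrays. Both were among the brightest values of every array and neither was called (-0.10 ± 0.14 and -0.09 ± 0.15). S100a9 was the highest of all genes on 5 of the 6 arrays, and the values carry no flag for saturation, so a difference at this end of the scale may not be measurable. Lcn2 (0.05), Cd177 (0.07), Mmp8 (0.40) and Hp (0.01) were not called either. Adam8 and Cxcr2 were the rises. Among 8 measured neutrophil markers, which share 5 genes with this list, 3 rose (Clec4d 1.7, Cxcr2 1.52 and Trem1 1.09) and 0 fell, with a median of 0.87, and 5 rose without the first spleen array. Their mean was 12.17, 12.20 and 11.88 on the tumor arrays, against 11.78, 11.39 and 10.75 on the spleen arrays. Of 5 measured NADPH oxidase genes, the source of the oxidative burst, Cybb fell by 1.89 ± 0.19 and Ncf1 by 1.21 ± 0.18. The call of Ncf1 was lost without the third tumor array (-0.962) or without the first spleen array (-0.948).

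Cell cycle genes gave 1 rise and 9 falls among 27, with a median of -0.85. Kif11, a mitotic motor, had 5.18, 4.92 and 4.28 in the tumor arrays, against 7.54, 6.68 and 6.06 in the spleen arrays, and fell by 1.97 ± 0.30 (adjusted p = 2.63e-05). The replication helicase subunit Mcm5 fell by 1.36 ± 0.19, the proliferation marker Mki67 by 1.25 and the topoisomerase Top2a by 1.16. The rise was in Cdkn1a, which arrests the cycle, with 10.91, 11.34 and 11.11 in the tumor arrays, against 8.76, 8.69 and 9.19 in the spleen arrays (2.24 ± 0.17, adjusted p = 2.1e-10). The spleen arrays differed among themselves. The list averaged 8.54, 8.03 and 7.59 over them, against 7.43, 7.32 and 7.30 over the tumor arrays. The count of falls was 4 without the first spleen array, 18 without the third and 15 without the third arrays of both sites. Healthy spleen arrays, at 7.02 to 7.36, were near the tumor arrays. The 4T1 tumor arrays, at 8.29 to 8.49, lay above the C26-GM tumor arrays and within the range of the C26-GM spleen arrays. Marrow arrays averaged 9.25 to 9.32.

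The largest fall of all was in Vcam1, an adhesion receptor carried by red pulp macrophages and endothelium. It had 6.07, 4.43 and 5.51 in the tumor arrays, against 11.73, 11.99 and 12.01 in the spleen arrays, a difference of -6.57 ± 0.34 (adjusted p = 2.28e-13). Cd5l, a secreted protein of tissue macrophages, had 4.47, 4.69 and 4.62 in the tumor arrays, against 9.64, 10.03 and 10.52 in the spleen arrays, and fell by 5.47 ± 0.33 (adjusted p = 3.17e-12). Spic, the factor on which red pulp macrophages depend, had 6.49, 6.45 and 5.84 in the tumor arrays, against 9.17, 9.78 and 9.34 in the spleen arrays, and fell by 3.17 ± 0.21 (adjusted p = 1.48e-11). Of 10 measured red pulp macrophage markers 0 rose and 7 fell, with a median of -2.45, the others being Adgre4 (-5.12 ± 0.31), Hpgd, the iron exporter Slc40a1 (-1.73) and Axl. The list averaged 6.10, 6.00 and 5.83 over the tumor arrays, against 8.65, 8.86 and 8.90 over the spleen arrays and 10.47 to 10.52 in healthy spleen. RMA has no zero, so no marker can be called absent, but Cd5l and Adgre4 were below 5 on every tumor array. There they lay between the 29.2 and the 33.6 percentile of all genes.

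Monocyte and macrophage markers gave 2 rises and 10 falls among 17, with a median of -1.21. The complement subunit C1qa had 9.29, 9.07 and 8.94 in the tumor arrays, against 10.98, 11.08 and 11.26 in the spleen arrays, and fell by 2.00 ± 0.17 (adjusted p = 1.97e-09). Its partners C1qb (-1.97 ± 0.23) and C1qc (-1.98 ± 0.21) fell alike, and all 3 were high in 4T1 tumors (means of 12.77, 12.49 and 12.05 for C1qa, C1qb and C1qc). Treml4 (-2.76 ± 0.27), the scavenger receptors Marco (-2.67 ± 0.20) and Cd163 (-1.81), and Adgre1, which encodes F4/80 (-1.41 ± 0.20), fell too. The rises were in Msr1 (1.73) and the high-affinity IgG receptor Fcgr1 (1.26 ± 0.20), whereas Cd68 (0.55) was not called. Among the other leading falls were Clec4b1, a lectin of dendritic cells and monocytes (-4.57 ± 0.32), and Fcna, a ficolin of spleen and liver macrophages (-3.87 ± 0.36). Of 8 Fc receptors Fcgr1 rose and the neonatal receptor Fcgrt fell by 1.96 ± 0.28. Dendritic cell markers gave 0 rises and 3 falls among 11, with a median of -0.40. These were Cd209a, Dpp4 (-3.16 ± 0.28) and Batf3 (-2.98 ± 0.26), while Xcr1 (-0.26), Siglech (0.17) and Flt3 (-0.66) were not called.

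Antigen presentation genes gave 1 rise and 7 falls among 17, with a median of -0.92. Ciita, the master regulator of class II genes, had 4.75, 5.27 and 5.57 in the tumor arrays, against 6.64, 6.61 and 6.90 in the spleen arrays, and fell by 1.52 ± 0.23 (adjusted p = 2.07e-05). The class II chains H2-Ea (-1.36 ± 0.22), H2-Eb1 (-1.2 ± 0.23), H2-Aa (-1.09) and H2-Ab1 (-1.06) fell, as did H2-DMa (-1.16) and H2-Ob (-2.81 ± 0.30), which is typical of B cells. The mean of the probe sets of H2-Ea was -0.951. Without the first tumor array 3 falls were left, and H2-Eb1 then had -0.949. The costimulator Cd80 rose by 1.59 ± 0.25, while Cd86 (-0.60) and Cd74 (-0.92) were not called. B cell markers moved with this list. Of 12 B cell and plasma cell markers 0 rose and 8 fell, with a median of -1.61. They included Jchain (-5.52 ± 0.41), Ighm (-5.25 ± 0.20), Igha (-4.55 ± 0.41), the coactivator Pou2af1 (-3.59 ± 0.28), Cd79b (-2.04 ± 0.25) and Ms4a1 (-2.01). For Ighm 5 of 11 probe sets were called, and the mean over probe sets was -1.43. The B cell markers averaged 4.52, 4.57 and 5.02 over the tumor arrays, against 6.55, 6.97 and 6.77 over the spleen arrays and 8.85 to 9.02 in healthy spleen, and Pax5 (0.09) and Cd22 (0.30) were not called. Their part in the fall of the class II genes was not tested.

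**Figure D5:**
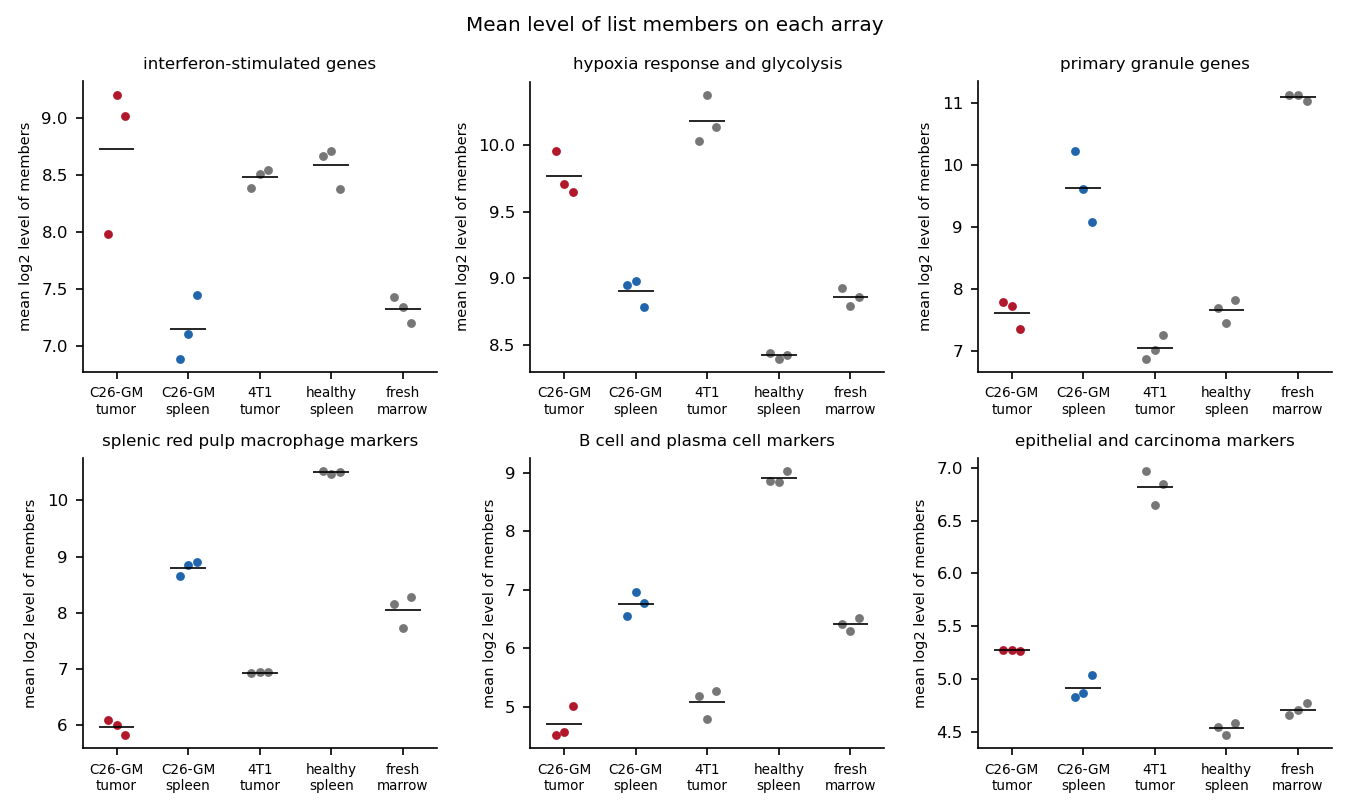
Mean log2 level of the measured members of 6 gene lists on each of 3 arrays in 5 groups (points), with the mean of the 3 arrays (line); each panel has its own vertical scale, which does not start at 0. Primary granule genes were higher in the C26-GM spleen (9.08 to 10.22) than in the C26-GM tumor (7.36 to 7.80) and highest in marrow, and red pulp macrophage markers were lowest in the C26-GM tumor (5.83 to 6.10).

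Markers of other cells gave fewer calls. Over all genes 2.79% were called higher and 3.36% lower, and in lists this short 1 or 2 calls say little about a cell type. Among 10 T cell markers Il7r rose by 3.28 ± 0.30 and Cd3d fell by 1.98 ± 0.34, whereas Cd3e (-0.10), Cd4 (0.08) and Cd8a (-0.12) were not called, and Cd3d was also high in fresh marrow (10.87). In the limma model 0 of 8 NK cell markers were called, with a median of 0.06, and 0 had an unadjusted p under 0.05. Among eosinophil, basophil and mast cell markers 2 of 10 fell, Ccr3 and Mcpt8 (-1.46 ± 0.33). The band 3 gene Slc4a1 (-2.47 ± 0.34) was the only fall among 6 erythroid markers. Of 8 platelet markers Pf4 rose and Tubb1 fell by 1.36 ± 0.37, a call lost without the third spleen array (-0.782) and in the fit on the 6 arrays alone (adjusted p = 0.0977), and 4 of the list fell without the first spleen array. The platelet markers averaged 6.68, 6.34 and 6.71 over the tumor arrays, against 6.39, 6.84 and 7.88 over the spleen arrays, so that the third spleen array was the highest. Epithelial and carcinoma markers, which tumor cells could carry, gave 2 rises and 0 falls among 11, with a median of 0.06. Cdh1, the E-cadherin gene, which macrophages can also express, had 9.28, 9.46 and 9.94 in the tumor arrays, against 6.84, 7.35 and 7.71 in the spleen arrays (2.26 ± 0.47, adjusted p = 0.0011). Krt20 rose by 1.47 ± 0.19, while Krt8 (0.02 ± 0.57), Krt18 (-0.23 ± 0.60), Krt19 (0.02) and Epcam (0.21) were not called. The list averaged 5.27 on each tumor array, against 4.83 to 5.04 on the spleen arrays and 6.65 to 6.97 on the 4T1 tumor arrays. Of 10 endothelial markers Emcn alone rose (1.27 ± 0.32). It too was low at both sites, at the 24.9 to 32.1 percentile on the tumor arrays and 6.6 to 11.5 on the spleen arrays. Adhesion molecules gave 1 rise (Cd9) and 3 falls among 15, with Itga4 (-1.80 ± 0.22), Ceacam1 (-1.71 ± 0.18) and Itgb3 (-1.40 ± 0.26) falling, and Itgb3 was not called without the third spleen array (-0.955) or as the mean of its probe sets (-0.754). Of 11 housekeeping genes 0 were called by limma, with a median of -0.12, and 4 had an unadjusted p under 0.05.

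Cells of 4T1 tumors against healthy spleen gave a second difference between tumor and spleen that shares no array with the first, although its spleens came from mice without a tumor. It called 2231 genes (12.3%), 1242 higher (6.83%) and 989 lower (5.44%). Of the 508 genes higher in C26-GM tumors 221 (43.5%) were also higher in 4T1 tumors, which is 17.8% of the 1242, and 53 were lower there. Of the 612 genes lower in C26-GM tumors 251 (41%) were also lower in 4T1 tumors, which is 25.4% of the 989, and 55 were higher there. Across all genes the differences correlated with r = 0.35 (Pearson) and 0.11 (Spearman), a description only, since genes are not independent. In the C26-GM and the 4T1 contrast Cxcl3 had 9.30 and 8.47, Il6 4.15 and 5.18, and Cd5l -5.47 and -5.87, and for none of these was the difference between the contrasts called (adjusted p = 0.0522, 0.167 and 0.657). For Arg1 (6.48 against 8.92) the difference between the contrasts was itself called (-2.44 ± 0.49, adjusted p = 0.000628).

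The difference between these contrasts was called for 2404 genes (13.2%), 913 positive (5.02%) and 1491 negative (8.2%). Ifit3 rose by 2.96 in C26-GM and fell by 1.11 in 4T1, a difference of 4.07 ± 0.42. Mpo fell by 5.45 in C26-GM and by 1.7 in 4T1, Fabp4 rose by 5.29 in C26-GM and had 0.06 in 4T1, and C1qa fell by 2.00 in C26-GM and had 0.70 in 4T1. Each of these differences between contrasts was called. The C26-GM and healthy spleens also differ in the presence of a tumor, so tumor type and spleen state cannot be told apart here. Xist, which is transcribed from the inactive X chromosome, had 5.15 to 6.47 on the tumor arrays and 5.28 to 5.75 on the spleen arrays of C26-GM (0.17 ± 0.21, not called), against means of 10.51 in 4T1 tumor, 10.92 in healthy spleen and 10.78 in marrow. The C26-GM sites were thus alike in Xist, whereas the groups used for context differed from both. The labels do not give the sex of the hosts. A difference between hosts that goes with Xist cannot be told apart from tumor type or spleen state either. Measured against those groups, healthy spleen lay nearer to the C26-GM spleen than to the C26-GM tumor for 79.3% of the 508 rises and 80.6% of the 612 falls, marrow for 79.1% and 60.3%, and 4T1 tumor for 47.8% and 54.4%.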

How the data were processed

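Expression was measured on 30 arrays in 10 groups of 3, of which the C26-GM tumor and C26-GM spleen groups are compared. The deposited table holds log2 values, which the authors obtained with RMA, per the submitters' processing notes; its version is not given in the labels or notes used here. RMA corrects background, quantile-normalizes and summarizes probes, so a global shift between groups would be removed. Of 45101 probe sets 34958 had 1 gene symbol, 932 several and 9211 none, and 34754 (99.4%) of those with 1 symbol were in a RefSeq gene table. For each of the 18194 genes the brightest probe set, on average over the 30 arrays, was kept. The 10 groups entered 1 limma model (R 4.3.3, limma 3.58.1) with moderated statistics and Benjamini-Hochberg adjustment, tested on simulated data first. Figures and motif searches used Python 3.11.15; promoters are 300-base windows of the RefSeq table. The members and the 38 gene lists (570 genes, 523 measured) were chosen with earlier results of these data known. Members without a probe set of 1 symbol are not reported. Named are the 12 largest rises and falls among called genes whose groups did not overlap (predicted and immunoglobulin or T cell receptor segments passed over), up to 5 called members of each list, a fixed panel, and the 5 largest differences each way from the 4T1 contrast; further list members stand beside them as examples, chosen after their values were seen. The interferon motif was added after seeing the data. The labels do not say that arrays with one replicate number come from one mouse, so the main fit has no replicate block. Deviations of same-numbered tumor and spleen arrays from their group means correlated at 0.367, 0.0634 and 0.47. For arrays with unlike numbers the values ran from -0.449 to 0.302, which does not settle whether the numbers pair arrays. Alternatives were housekeeping centring, quantile normalization over the 6 arrays, only the 6 arrays, array weights, removal of low genes, other choices of probe set, a trended robust prior, other thresholds, a replicate block and leaving out arrays.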

Additional observations from a re-analysis of the deposited data

Results flagged for a closer look

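The difference between tumor and spleen in C26-GM was compared with that between 4T1 tumor and healthy BALB/c spleen, and 2404 genes differed between these contrasts in the limma model with Benjamini-Hochberg adjustment. The 5 largest positive differences were those of Fabp4 (5.23), the sialyltransferase St3gal6 (5.21), the meiotic gene Sycp2 (4.91), the granzyme Gzma (4.76) and the inflammasome regulator Nlrp12 (4.71). St3gal6 had 10.42, 10.79 and 9.68 in the C26-GM tumor arrays, against 8.02, 8.07 and 6.23 in the C26-GM spleen arrays (2.85 ± 0.33), and -2.35 in the 4T1 contrast. Only 2 of its 5 probe sets were called. Gzma was not called between the C26-GM sites (-0.59 ± 0.34) but fell by 5.35 in the 4T1 contrast, where healthy spleen averaged 10.59. The call of Nlrp12 between the sites (1.41 ± 0.41) was lost without the second tumor array (adjusted p = 0.12), the second spleen array (adjusted p = 0.0505) or the third spleen array (0.824), and in a fit on the 6 arrays alone (adjusted p = 0.159).

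The 5 largest negative differences were those of Fcrls (-7.96), Krt18 (-6.25), Moxd1 (-5.94), Krt8 (-5.93) and the chemokine Ccl8 (-5.78). Fcrls, a scavenger receptor gene of the Fc receptor-like family, had 5.20, 5.95 and 5.96 in the C26-GM tumor arrays, against 7.58, 8.22 and 8.07 in the C26-GM spleen arrays (-2.25 ± 0.32), while it averaged 10.22 in 4T1 tumor and 4.51 in healthy spleen. The keratins Krt8 and Krt18 averaged 10.53 and 11.00 in 4T1 tumor and were not called between the C26-GM sites. Ccl8 rose in both contrasts, by 1.65 in C26-GM and by 7.44 in 4T1. The second contrast uses spleens of mice without a tumor, so a difference between tumors and one between spleens cannot be told apart. Both of its groups also had more Xist than the C26-GM groups, and a host difference that goes with Xist cannot be separated from these.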

How the results depend on the processing

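Of 142 named genes that were called, 120 kept their call and direction under each alternative that measured them, and 5 of those were not measured under 1 alternative. No called named gene changed sign, whereas 8 of the 24 uncalled ones did. The count of 1120 calls moved by over 1.5 times only without a minimum fold (2580 calls, 1024 higher and 1556 lower, and 4613 for 4T1 tumor against healthy spleen). Leaving out each array in turn gave 1047 to 1247 calls (455 to 581 higher, 540 to 783 lower), 138 to 141 called among the named genes and 187 to 201 among the list genes. The replicate block gave 1141 calls, the 1120 and 21 more, with no call of a named gene changed. Whether the replicate numbers pair arrays is not known. Other counts were 954 with only the 6 arrays, 942 after quantile normalization over them, 1334 with array weights, 1113 of 12964 genes after low genes were removed, 851 with the mean of all probe sets, 1089 without probe sets that may cross-hybridise (3 called genes then had the opposite sign), 1104 with the brightest probe set over the 6 arrays (7 with the opposite sign), 1122 with the trended prior and 1009 at adjusted p below 0.01. Tested singly, 1937 of 34958 probe sets were called. Housekeeping centring shifted the median of all genes to 0.128 and gave 1112 calls, 55.8% of them rises. Signal near background limits genes that are low at both sites.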
